A study of Mus musculus with 2 samples.

Results

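The Mir200 family of mouse has 5 microRNA genes in 2 clusters: Mir200b, Mir200a and Mir429 on chromosome 4, and Mir200c and Mir141 on chromosome 6. The members were taken by gene name, with no threshold on their levels, and all 5 were found among the 1973 microRNA loci of the count tables. Their levels were read from small-RNA sequencing of facial prominences, the swellings that fuse to form the face, of healthy B6NCrl embryos at day 11.5. There was 1 group of 2 libraries, each made from a mixed-sex pool, of 109 embryos for replicate 1 and 88 for replicate 2. The labels give no treatment, mutation or other tissue, and they list the same donor entry for both pools. With a single group, levels are compared between members inside each library and between the pools, and no p-value is given. Differences between pools therefore measure only the spread between these libraries, which may be partly technical.

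The family is a textbook guard of epithelial identity. Its members are made in epithelial cells and bind the messenger RNAs of Zeb1 and Zeb2, transcription factors that switch off E-cadherin and drive epithelial cells towards mesenchyme. Zeb1 and Zeb2 in turn bind the promoters of both Mir200 clusters and repress them, so that each side of the loop holds the other down. In mouse the family is also known from the olfactory epithelium, which arises in the nasal part of the face.

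A microRNA finds its targets mainly through its seed, bases 2 to 8 from the 5′ end, and the family is divided by a single base there. The guide arms known from the literature are the 3p arms, cut from the 3′ side of each hairpin. They are shown because the levels below were grouped by these seeds, which stand in capitals (RefSeq, GRCm38.p6, minus strand, all 5 members matched).
miR-200b-3p, chr4:156055685-156055706: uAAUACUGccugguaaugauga
miR-429-3p, chr4:156053916-156053937: uAAUACUGucugguaaugccgu
miR-200c-3p, chr6:124718324-124718346: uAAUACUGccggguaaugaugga
miR-200a-3p, chr4:156054911-156054932: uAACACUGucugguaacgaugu
miR-141-3p, chr6:124717917-124717938: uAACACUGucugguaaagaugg
Counted from 1 at the 5′ end, the seed of miR-200a-3p differs from that of miR-200b-3p only by U4C. Each cluster holds both seed types. The seed of miR-200b-3p occurred in 3 of the 1738 mouse mature arms in the RefSeq table and that of miR-200a-3p in 2, so no arm outside the family carried either one.

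Of the 22 positions that all 3p arms share, 15 held the same base in every member, and after the seed 8 of 14 did. The closest pairs lie on different chromosomes and share a seed: miR-200b-3p and miR-200c-3p were identical at 90.9% of 22 bases and differed by U11G and A22G, and miR-200a-3p and miR-141-3p, also 90.9% identical, differed by C17A and U22G. Compared base by base from the 5′ end, with no shift allowed, 3p arms differed at 2 to 5 positions and 5p arms at 5 to 16. Among the 5p arms only miR-200b-5p and miR-200a-5p shared a seed. The count tables hold 1 value per gene, so 5p and 3p arms cannot be told apart in any level below.

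Likeness of this degree bears on counting, because reads that fit several genome positions were kept out of the counts per gene. The longest run of bases that 2 members' hairpins had in common was 17, between Mir200a and Mir141, and the longest run with any hairpin outside the family was 13, between Mir429 and Mir218-1. No member shared 20 bases in a row with another hairpin among the 1005 in the table. How many reads of the members fell in the class placed at several positions was not tested.

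The hairpins of the most and the least abundant member of the chromosome 4 cluster show where the arms lie, with both arms in capitals.
Mir429, chr4:156053905-156053987, minus strand: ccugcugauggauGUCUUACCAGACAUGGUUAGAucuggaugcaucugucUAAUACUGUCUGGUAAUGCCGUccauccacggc
Mir200a, chr4:156054896-156054985, minus strand: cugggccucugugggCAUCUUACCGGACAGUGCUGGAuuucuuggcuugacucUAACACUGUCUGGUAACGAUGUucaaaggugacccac
In both, 16 bases separate the arms. Across the family this distance ranged from 14 bases in Mir200b to 20 in Mir141.

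The 3′ UTR of Zeb2 illustrates how both seed types meet on the known target, whose own RNA was not measured in these small-RNA libraries. The complement of the Mir200b-type seed (CAGTATT) occurred 5 times and that of the Mir200a-type seed (CAGTGTT) 4 times in the 4941 bases of this UTR (transcript Zeb2-212, chromosome 2, sense strand only; the motifs do not overlap each other). Among 822 genes whose longest annotated 3′ UTR has at least that length, 38.7% held the first motif at least once in the same number of bases and 51.7% the second. At least 5 copies of the first were found in 0.122% of them, which is Zeb2 alone, and at least 4 copies of the second in 1.22%. The 2401 bases of the Zeb1 3′ UTR likewise held 5 and 4 copies. A neighbouring pair of matches in Zeb2, 1 of each type with the match in capitals, lies on the minus strand of GRCm38.
Match to the seed of Mir200a and Mir141, chr2:44987781-44987805: ctttgcaccagcttCAGTGTTaagc
Match to the seed of Mir200b, Mir200c and Mir429, chr2:44987743-44987767: tgaagcacccgtgtCAGTATTagac
These matches describe the sequence only, and binding was not measured.

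Both clusters are compact and lie on the minus strand (positions from GENCODE M21, GRCm38). On chromosome 4, Mir200b (156055681 to 156055750) comes first along the transcript, Mir200a (156054896 to 156054985) follows after 695 bases, and Mir429 (156053905 to 156053987) after another 908. All 3 lie in an intron of the protein-coding gene Ttll10 and inside the non-coding gene Gm13648 on the same strand. Within Gm13648, which has 2 exons, Mir200b and Mir200a are intronic, whereas Mir429 lies in exon 2. On chromosome 6, Mir200c (124718322 to 124718390) and Mir141 (124717914 to 124717985) are 336 bases apart, in an intron of the non-coding gene Gm15884, and Mir141 also overlaps part of the single-exon gene Gm29008. Opposite-strand counts at the members were between 0 and 1 per gene in replicate 1 and between 0 and 3 in replicate 2. The sense strand was identified from the counts, so these low values are no separate check of strand.

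**Figure D1:**
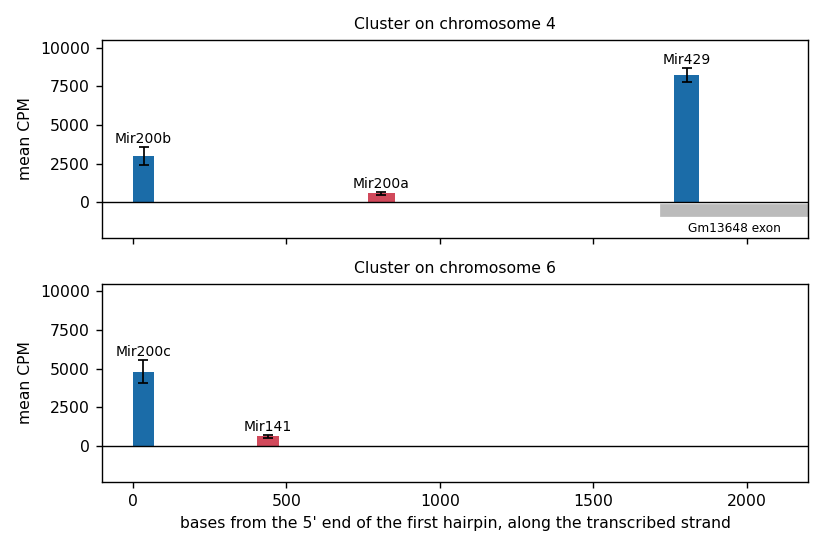
Map of both clusters: the horizontal axis gives bases from the 5′ end of the first hairpin along the transcribed strand, and each bar spans 1 hairpin with its height showing mean CPM (error bars, SD over 2 pools). Blue bars carry the Mir200b-type seed and red bars the Mir200a-type seed; in both clusters the red member is the lowest, and Mir429, the tallest at 8239 CPM, lies over the grey exon of Gm13648.

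The 5 members differed widely in level. CPM is the sense-strand count of a gene per 1000000 sense counts at all microRNA loci, and those counts numbered 1941745 for replicate 1 and 2319881 for replicate 2. The library size range is under 30 bases and the 3p arms measure 22 or 23 bases, so levels were not scaled by length. Mir429 had 16627 counts in replicate 1 and 18361 in replicate 2, or 8563 and 7915 CPM. Mir200c had 10333 and 9895 counts, or 5322 and 4265 CPM. Mir200b had 6627 and 6014 counts, or 3413 and 2592 CPM. These are the members with the Mir200b-type seed, and they occupied ranks 31, 51 and 63 of all loci by mean CPM.

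The remaining pair, with the Mir200a-type seed, was much lower. Mir141 had 1327 counts in replicate 1 and 1304 in replicate 2, or 683 and 562 CPM. Mir200a had 1252 and 1194 counts, or 645 and 515 CPM. They ranked 127 and 130. Exact (Clopper-Pearson) 95% intervals, which cover counting error only, ran for Mir200a from 609.6 to 681 CPM in replicate 1 and from 486 to 545 CPM in replicate 2, the widest of the family relative to the level. Each member was higher in replicate 1 than in replicate 2, and the intervals of the 2 libraries did not overlap for any of them.

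**Figure D2:**
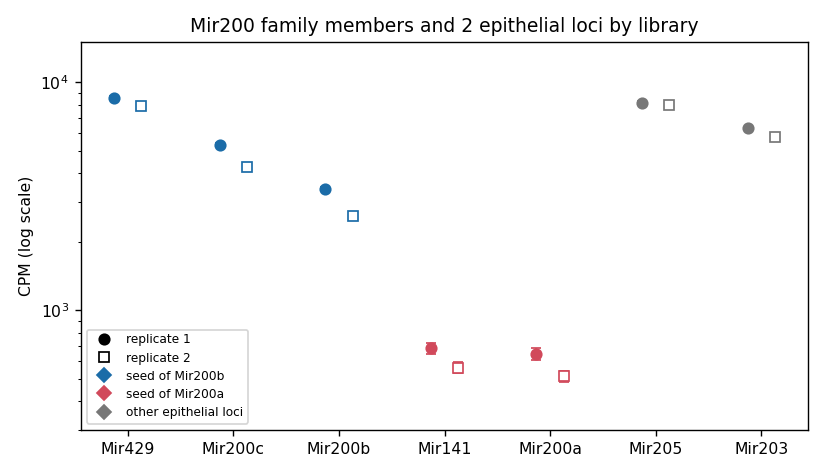
CPM (log scale) of each member and of the epithelial loci Mir205 and Mir203 in replicate 1 (filled circles) and replicate 2 (open squares), with exact 95% counting intervals as bars, mostly smaller than the symbols. Blue symbols (Mir200b-type seed) lie between 2592 and 8563 CPM, and red symbols (Mir200a-type seed) between 515 and 683 CPM.

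The order of the members was the same in both libraries: Mir429, Mir200c, Mir200b, Mir141, Mir200a. A difference between members was counted as larger than the spread when it had the same sign in both libraries and its log2 size in each exceeded the log2 ratio between pools of either member. By that measure 9 of the 10 pairs differed. Of neighbours in the order, Mir429 exceeded Mir200c by a log2 ratio of 0.69 in replicate 1 and 0.89 in replicate 2. Mir200c exceeded Mir200b by 0.64 and 0.72. The step from Mir200b to Mir141 was the largest between neighbours, at 2.32 and 2.21. Mir141 and Mir200a, by contrast, were set apart by 0.08 (95% counting interval -0.03 to 0.20) and 0.13 (0.01 to 0.24). This did not exceed the ratios between pools of the 2 members (up to 0.33). Those ratios are of each member's own level, and a shift that both members share cancels in their difference. The difference itself had an SD of 0.03 (n = 2), and its counting interval included 0 in replicate 1 only.

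Members of 1 cluster were further apart than same-seed partners on different chromosomes. In the chromosome 4 cluster Mir429 stood above Mir200a by a log2 ratio of 3.84 ± 0.15 (SD, n = 2) and above Mir200b by 1.47 ± 0.20, and Mir200b stood above Mir200a by 2.37 ± 0.05. In the chromosome 6 cluster Mir200c stood above Mir141 by 2.94 ± 0.03. Each cluster thus had its Mir200a-type member as the lowest. The order did not follow position along the transcript, since on chromosome 4 the last hairpin was the highest and on chromosome 6 the last was the lower one. How well each sequence is ligated and amplified was not tested, and it can shift levels between different sequences in 1 library.

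Summed by cluster, chromosome 4 supplied 67.8% of the family's counts in replicate 1 and 69.5% in replicate 2. Its total exceeded that of chromosome 6 by 2.10-fold and 2.28-fold. Summed by seed, the Mir200b-type members held 92.9% and 93.2% of the family, a log2 ratio of 3.70 and 3.78 over the Mir200a-type members. The excess was 18.6-fold and 20.4-fold inside the chromosome 4 cluster, where 2 members carry the first seed, and 7.79-fold and 7.59-fold inside the chromosome 6 cluster, where 1 does. Mir429 alone made up 46.0% (95% interval 45.5 to 46.5) of the family in replicate 1 and 49.9% (49.4 to 50.4) in replicate 2. Mir200c took 28.6% and 26.9%, and Mir200b 18.3% and 16.4%. Mir141 took 3.67% and 3.55%, and Mir200a 3.46% and 3.25%. Mir429 thus took a smaller part of the family in replicate 1 than in replicate 2, and Mir200c and Mir200b larger parts, with intervals that did not overlap. The intervals of Mir141 and of Mir200a did overlap between the pools.

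**Figure D3:**
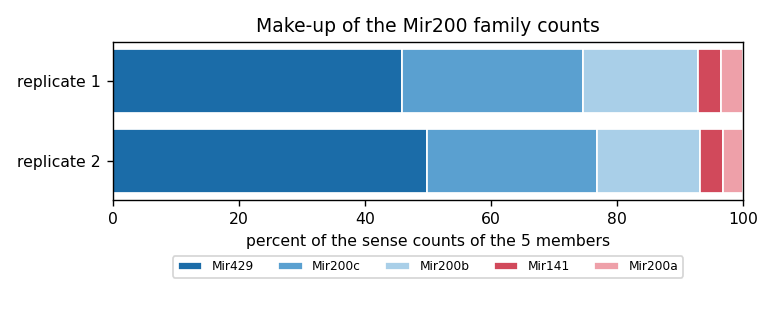
Share of each member in the summed sense counts of the family (horizontal axis, percent) for replicate 1 (upper bar) and replicate 2 (lower bar). Blue shades carry the Mir200b-type seed and fill 92.9% and 93.2% of the bars; Mir429 is the largest segment in both.

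The family as a whole held 1.86% of all sense counts in replicate 1 and 1.58% in replicate 2, a log2 ratio of 0.23 (95% counting interval 0.21 to 0.25). All 5 members were higher in replicate 1; of the 257 loci that averaged 100 counts or more, 127 were, which is 49.4%. The median log2 ratio of replicate 1 over replicate 2 was 0.32 for the members and -0.01 for those 257 loci, whose 5th and 95th percentiles were -0.44 and 0.38. No member passed 2-fold, a size reached on the side of replicate 1 by 0.778% of the loci. Genes in 1 Mir200 cluster are known to share a primary transcript and are not independent, so 5 members amount to 2 clusters here. In bulk tissue, fewer cells of a type and less RNA per cell cannot be told apart.

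The members did not all move by the same amount. Mir200b had the highest log2 ratio, 0.40 (0.35 to 0.45), which placed it 12th from the top among the 257 loci. Mir200a followed at 0.33 (0.21 to 0.44), Mir200c at 0.32 (0.28 to 0.36) and Mir141 at 0.28 (0.17 to 0.39). Mir429 had 0.11 (0.08 to 0.14), 64th from the top. Its interval lay below those of the other members, including its cluster neighbours Mir200b and Mir200a, so the ratio of Mir429 to Mir200b was 2.51 in replicate 1 and 3.05 in replicate 2. These intervals leave out the biological spread among embryos, for which 2 pools give no separate estimate per gene.

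**Figure D4:**
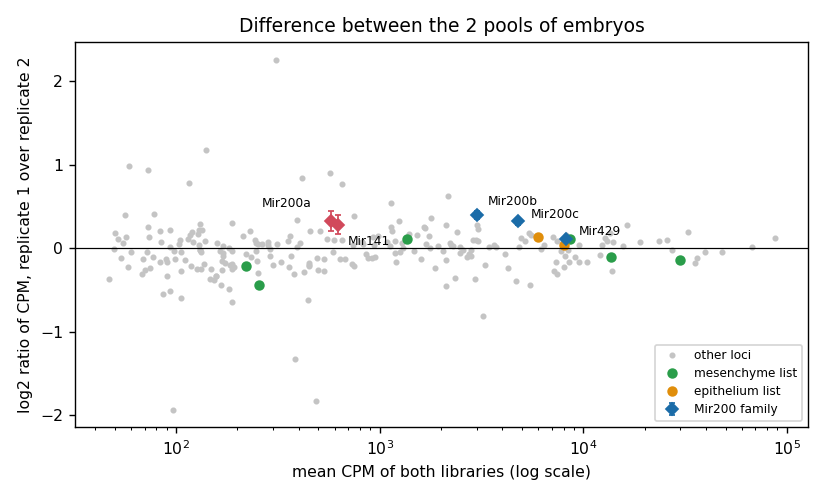
Log2 ratio of CPM, replicate 1 over replicate 2 (vertical axis), against mean CPM (log scale) for the 257 loci averaging 100 counts or more. The members (diamonds, blue for the Mir200b-type and red for the Mir200a-type seed, with 95% counting intervals) lie between 0.11 and 0.40, above the 0 line; the epithelium list is orange and the mesenchyme list green.

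Other lists also moved between the pools. The sums over the striated muscle list (8 of 9 loci in the count tables) were 628 CPM (replicate 1) and 1494 CPM (replicate 2), where Mir208b had 212 and 758 CPM. Mir133a-1 and Mir133a-2 were at 0 in both libraries and Mir1a-1 at 0 in replicate 1. Reads at several positions were kept out of the counts, so a 0 at a gene present in copies, such as these, does not show absence. Of the erythroid pair, Mir451a had 218 and 547 CPM and Mir144 46.4 and 45.7 CPM. Hepatocyte Mir122 had 16.0 and 44.0 CPM, from 31 and 102 counts, a mean below the minimum of 100 used for comparing pools. On the side of replicate 1 with the family were the sums of the ciliated-epithelium list (5 of 5 loci measured, 2607 and 1929 CPM, led by Mir34c and Mir449a) and of the neural list (6 of 7 loci, 1415 and 1142 CPM, with Mir124a-3 at 0 in both and Mir124a-1 at 0 in replicate 1). Of the 3 ciliated-epithelium loci that averaged 100 counts or more, 2 were higher in replicate 1. Mir34b went the other way (53.6 and 62.5 CPM), and Mir449b (6 and 1 counts) and Mir449c (1 and 2 counts) were near the floor. Nearly all of the neural sum came from Mir137, with 1384 and 1109 CPM, whereas Mir9-3 had 25.8 and 28.9 CPM. The Mir9 and Mir124a genes are present in copies and may be counted too low for the same reason. The neural sum is therefore mainly a level of Mir137, and how many of their reads were left out was not tested. The sensory-epithelium list Mir183, Mir96 and Mir182 summed to 32834 and 34073 CPM, but its members differed: the log2 ratios of Mir183 (0.08) and Mir96 (0.16) were above 0 and that of Mir182 (-0.27) below. Endothelial Mir126a had 39037 and 40424 CPM, and the leukocyte pair Mir223 and Mir150 together 393 and 476 CPM. The share of unmapped reads was 30.9% in replicate 1 and 38.6% in replicate 2. The part of any of these in the family's difference was not tested.

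The label of an epithelial family was set against the other epithelial microRNAs of the marker list. Both were abundant. Mir205, a microRNA of stratified and surface epithelium that in other systems also represses Zeb1 and Zeb2, was measured at 8166 CPM (replicate 1) and 7933 CPM (replicate 2). Mir203, which promotes the differentiation of skin epithelium, had 6297 and 5758 CPM. Mir429 stood at 1.05-fold and 0.998-fold the level of Mir205 and at 1.36-fold and 1.37-fold that of Mir203. Mir200c lay below both, by log2 ratios of -0.62 and -0.90 to Mir205 and -0.24 and -0.43 to Mir203. Mir200b, Mir141 and Mir200a lay lower still. The sum of the 5 members exceeded the single gene Mir205 by 2.28-fold and 2.00-fold, while no member was above Mir205 in both libraries. Between the pools Mir205 had a log2 ratio of 0.04 (0.01 to 0.07) and Mir203 0.13 (0.09 to 0.16), so 4 of the 5 members, all but Mir429, had counting intervals above those of both loci.

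Mesenchyme makes up the core of the prominences, and its list of 7 loci was all measured. Its sum was 52455 CPM for replicate 1 and 55790 CPM for replicate 2, led by Mir214 and Mir143. The family amounted to 0.355 and 0.284 of that sum. Of the 6 mesenchymal loci that averaged 100 counts or more, 2 had the higher level in replicate 1, with a median log2 ratio of -0.12. The sums cover different numbers of loci, and a share of counts is no measure of the share of cells. Reads at several positions, 22.7% of all reads in replicate 1 and 20.5% in replicate 2, were kept out of the counts. Genes present in copies, such as Mir199a-1 and Mir199a-2, may therefore be counted too low. How far this lowers the mesenchyme sum was not tested.

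A further list held microRNAs known from the epithelial-mesenchymal transition, mostly from human tumour cells. In the part with an epithelial role (Mir205, Mir203 and the p53-induced Mir34a, Mir34b and Mir34c), 5 of 5 loci averaged 100 counts or more and 4 were higher in replicate 1, with a median log2 ratio of 0.13. Mir34b was the exception, with 53.6 CPM in replicate 1 and 62.5 CPM in replicate 2. All of these loci but Mir34a were already counted in the epithelium or ciliated-epithelium list. Of all 257 loci, 49.4% were higher in replicate 1. The part with a mesenchymal or invasive role had 7 of 8 loci measured. Of the 5 that averaged 100 counts or more, 3 were higher in replicate 1, with a median of 0.10. Its most abundant loci were Mir21a, a microRNA raised in many tumours, with 8627 and 7752 CPM, and Mir10b, known from invasive breast cancer, with 1352 and 931 CPM. The levels of Mir21a were close to those of Mir429. The median ratios of both parts lay below that of the family, and the difference was not tested.

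The loci most like the summed family were sought by the log2 ratio between pools, among 133 loci outside it that averaged 1000 counts or more. With only 2 libraries this is a likeness in a single number. The nearest were Mir433 (0.24), Mir708 (0.23), Mir302d (0.25), Mir467e (0.25) and Mir153 (0.21), against 0.23 for the family. Their levels ranged from 546 and 473 CPM for Mir153 to 3270 and 2797 CPM for Mir708. With the minimum lowered to 100 counts, 3 of these 5 remained among the nearest 5.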

How the data were processed

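MicroRNA levels of 1 group with 2 libraries were analysed. The deposited values are unnormalised counts, 1 per microRNA locus, made by the authors for mm10 with GENCODE M4, per the text files that accompany them; the aligner and counting program are not given in the sources used here. The column taken as the sense strand was used, which held 97.0% and 96.8% of stranded counts in replicates 1 and 2. No header names that column, and it was identified by these values. The summary lines without a gene did not enter library sizes: unmapped reads (30.9% and 38.6%), reads at several positions (22.7% and 20.5%) and reads outside all loci (5.51% and 6.75%); 40.8% of 4755968 and 34.2% of 6781929 reads were assigned. Identifiers were matched to GENCODE M21 symbols, versions ignored (1894 of 1973). CPM, ratios, exact binomial 95% intervals and sequence comparisons were computed with Python 3.11.15, numpy 2.4.6, pandas 2.3.3 and scipy 1.17.1, figures with matplotlib 3.10.9, and, under R 4.3.3, alternative library factors with DESeq2 1.42.0 and the TMM method of edgeR 4.0.16. No molecular identifiers are named, so intervals cover counting error only. The ratio step was tested on simulated libraries that held counting error only, so that test does not cover variation between pools.

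The members, marker lists and naming rule (the members, the leading loci of each list, hairpins sharing 20 bases, and the 5 loci nearest the family between pools) were chosen with earlier results of these data known. Other loci of the lists, and Mir218-1 as the longest match, were named after their values were seen. The search for seed matches in 3′ UTRs was also added later: it used the longest UTR after the stop codon for each of 21020 protein-coding genes in GENCODE M21. Alternatives were the counts irrespective of strand, all reads as denominator, TMM and DESeq2 factors, other count minimums and leaving out each library.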

Additional observations from a re-analysis of the deposited data

How the results depend on the processing

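Of 61 values recomputed under another strand, scaling or count minimum, 49 stayed the same. That means within the spread between pools or their counting interval, or, for a count, within 1.5 times. None of the log2 ratios among them changed sign, and levels, shares and counts cannot. The TMM factors were 1.0006 and 0.9994 for replicates 1 and 2, so that setting could hardly move a value. Leaving out a library gave 30 more values, but with 2 libraries each is the other library's own value and lies inside their spread by construction, so these say nothing about stability. With all reads of the library as denominator, 11 moved. The mean levels of Mir429, Mir200c, Mir200b, Mir141 and Mir200a were then 3102, 1816, 1140, 236 and 219.7 per 1000000 reads, and the family's share 0.651%. The log2 ratios between pools were 0.37, 0.57, 0.65, 0.54 and 0.58 in the same order of members. That setting adds 0.26 to the ratio of every locus, because a smaller part of the reads was assigned in replicate 2: the median of the 257 loci became 0.25, and 86.4% of them were higher in replicate 1, so 5 of 5 members above 0 then says little. The ratios of the members relative to that median are the same by construction. The other value that moved was the list of the 5 most like loci. The share of loci higher in replicate 1 ranged from 48.8% at a minimum mean count of 20 to 55.3% at 500. No paired analysis was possible because there is only 1 group. Depth limits Mir200a and Mir141 most, and 2 pools give no estimate of spread per gene beyond their difference.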
